A study of Homo sapiens with 6 samples.

Results

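The 10 genes described here encode feedback regulators of mitogen-activated protein (MAP) kinases: the phosphatase genes DUSP1, DUSP2, DUSP3, DUSP4, DUSP5, DUSP6, DUSP7 and DUSP10, and the Sprouty genes SPRY2 and SPRY4. They were chosen by symbol among the 11963 genes that the array's probe sets name, and all 18 probe sets annotated to these symbols were taken. The choice was made with their signals in S1b, S1a and parental cells known, and with no threshold on signal, so their values and calls are a description of these arrays and not independent evidence. Of the 10 genes, 9 passed a filter on low signal and 1, DUSP2, did not; of the 18 probe sets, 16 passed.

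Isolate S1b and isolate S1a of the human breast cancer line MDA-MB-231 were compared with the parental MDA-MB-231 line. The isolates are labelled as separately isolated seeder cells, that is, circulating cells able to colonise the tumour they came from. Each population was measured on 2 arrays, and all cells were grown subconfluent in DMEM with 10% FBS, with no other agent or genetic change in the labels. The set holds no population isolated from cells that do not seed, and seeding and the isolation procedure therefore cannot be told apart. Separate cultures are not named behind the 2 arrays of a population, although the titles speak of biological replicates, and the spread that the p-values use may be technical. In bulk RNA, fewer cells that carry a transcript and less of it per cell cannot be told apart.

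MAP kinase cascades carry growth factor and stress signals to the nucleus through the kinases ERK, JNK and p38. Dual-specificity phosphatases of the DUSP family remove the activating phosphates from these kinases, and many of their genes are themselves switched on by the kinases, which closes a negative feedback loop. Sprouty proteins are induced by the same signals and restrain the pathway further up, between growth factor receptors and the RAF kinases. In tumour cells with an active RAS pathway, levels of some of these transcripts, DUSP6 among them, are widely read as a sign of ERK output.

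The signals were made by the authors with MAS5, which gives 1 intensity per probe set on a linear scale. Every array had a trimmed mean of 500.2 units and a median between 87.6 and 106 units. Probe sets of different genes differ in efficiency, so levels are compared between populations and not between genes. Replicate arrays correlated with r between 0.978 and 0.987 over genes, which are not independent replicates. GAPDH, read from its 3' end over its 5' end, gave a signal ratio of 0.984 to 0.998 for S1b, 0.976 to 0.979 for S1a and 1.06 to 1.09 for parental cells, and the part of this difference in the results was not tested. The same ratio for ACTB was 1.36 to 1.39 for S1b and 1.34 to 1.46 for S1a, within the 1.28 to 1.55 of parental cells. The poly-A spike controls averaged 7.61 to 7.64 on the log2 scale for S1b, 8.04 to 8.08 for S1a and 7.12 to 7.75 for parental cells, and their part was not tested either. All 4 genes taken as markers of the line (VIM, CD44, CAV1 and AXL) were above the filter, with a summed signal of 47294 to 49622 units in S1b, 42843 to 46500 in S1a and 51326 to 56871 in parental cells. Of 4 genes that the line is known to lack or hold low, CDH1 and PGR were below the filter, ESR1 averaged 52.8, 24.8 and 54.8 units in S1b, S1a and parental cells, and EPCAM 359, 436 and 450 units. The 3 leukocyte markers with a probe set summed to 61.1 to 64.2 units in S1b, 89.5 to 146 in S1a and 139 to 158 in parental cells; PTPRC and CD3E were below the filter, and CD14 averaged 26.2 units in S1b, 56.9 in S1a and 86.9 in parental cells. Its part in the results was not tested. The 3 endothelial markers, all below the filter, summed to 66.3 to 67.7, 101.8 to 104 and 39.8 to 59.6 units.

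The upstream sequences of 3 members whose signal differed between the populations are shown as the genomic context of these genes, and were not tested for any link to their signal: DUSP1 and SPRY4, which were higher in the isolates, and DUSP10, which was lower. DUSP4 and DUSP5, also higher, have no entry in the RefSeq promoter table. DUSP7, also higher, is in it but is not shown, and its window held no half-site as defined below. DUSP3 and SPRY2, which were not called, are not shown either, and their windows held the half-site. Each run is the 250 bases before the RefSeq start of the gene (build GRCh38.p14), read 5′ to 3′ on the strand of the gene, with matches on either strand to TGACG, the half-site of the cyclic AMP response element, in capitals. The windows are chr5:172771196-172771445 (minus strand) for DUSP1, chr5:142324248-142324497 (minus strand) for SPRY4 and chr1:221742090-221742339 (minus strand, 1 of 2 listed starts) for DUSP10.
DUSP1: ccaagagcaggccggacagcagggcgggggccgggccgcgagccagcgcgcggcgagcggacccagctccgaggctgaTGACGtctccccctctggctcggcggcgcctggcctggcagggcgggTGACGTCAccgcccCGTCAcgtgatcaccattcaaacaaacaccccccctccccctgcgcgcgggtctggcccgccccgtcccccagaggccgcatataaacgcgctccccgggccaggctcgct
SPRY4: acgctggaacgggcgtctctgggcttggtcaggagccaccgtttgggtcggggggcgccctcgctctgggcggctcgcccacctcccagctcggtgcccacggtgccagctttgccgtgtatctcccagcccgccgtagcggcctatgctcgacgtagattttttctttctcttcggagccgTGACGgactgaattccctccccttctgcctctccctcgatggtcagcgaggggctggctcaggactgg
DUSP10: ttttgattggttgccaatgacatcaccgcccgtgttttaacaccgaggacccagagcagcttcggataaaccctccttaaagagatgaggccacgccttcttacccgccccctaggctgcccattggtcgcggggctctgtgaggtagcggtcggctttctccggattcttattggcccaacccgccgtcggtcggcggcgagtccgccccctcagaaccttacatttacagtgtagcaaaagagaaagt

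The 8 members in the RefSeq promoter table were searched on both strands for the full cyclic AMP response element TGACGTCA and its half-site TGACG. They were also searched for the AP-1 site, with the letters TGANTCA, for the ETS site, with the letters CCGGAAG, and for the serum response element. Only the first listed start of each member was searched, 1 of 3 for SPRY2 and 1 of 2 for DUSP10. The windows of all genes were not limited in this way. The full element occurred once, in DUSP1 at bases -125 to -118 from the start, and in 1.65% of 35116 promoter windows of the same length. The half-site had 4 matches in DUSP1, of which 2 lay within that full element and overlapped each other, and 1 match each in DUSP3, SPRY2 and SPRY4; 21.2% of all windows held it. Neither AP-1, ETS nor serum response element letters occurred in these 8 windows, against 6.57%, 8.52% and 1.16% of all windows. A match is a description of the letters and not a site of binding, and DUSP10, DUSP2, DUSP6 and DUSP7 held none of the letters searched in this window.

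Among the inducible phosphatases of the nucleus, DUSP1, DUSP4 and DUSP5 were higher in both isolates than in parental cells. DUSP1, which acts on p38, JNK and ERK and is switched on within minutes by stress or growth factors, had 1336 and 1442 units in S1b and 1972 and 1982 in S1a, against 554 and 458 in parental cells. All 4 isolate arrays lay above both parental arrays, and both S1a arrays lay above both S1b arrays. The fit across all genes gave DUSP1 a log2 change of 1.45 ± 0.108 (SE) in S1b (limma adjusted p = 7.38e-06) and 1.96 ± 0.108 in S1a (adjusted p = 1.43e-06). By rank, DUSP1 had the 66th largest positive change of the 7791 tested genes in S1a and the 131st in S1b. Its dimmer probe set, near the filter, had 65.8 and 68.7 units in S1b and 155 and 119 in S1a, against 83.8 and 39.1 in parental cells. In that probe set the change was 1.19 ± 0.371 in S1a (limma adjusted p = 0.0307 over 11860 probe sets) and 0.21 ± 0.371 in S1b (adjusted p = 0.686), so the rise in S1b rests on the brighter one. At this level 37.9% of all probe sets were called in S1b and 35.5% in S1a. With the mean of both probe sets as the value of the gene, the S1b change was 0.83 and kept its call. Both probe sets of DUSP1 carry suffixes for probes shared with other transcripts.

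DUSP4, a nuclear phosphatase of ERK and JNK, had 3625 and 4001 units in S1b and 4876 and 5300 in S1a, against 1925 and 1828 in parental cells. Its log2 change was 1.02 ± 0.0889 in S1b (limma adjusted p = 1.91e-05) and 1.44 ± 0.0889 in S1a (adjusted p = 2.79e-06). The second probe set gave the same order against parental cells, with 3016 and 3076 units in S1b and 2885 and 3681 in S1a, against 1258 and 1427 in parental cells. There the S1b and S1a arrays overlapped, and the changes were 1.18 ± 0.119 and 1.28 ± 0.119. None of the 16 tested probe sets of the members was called between the isolates at this level, with 1.31% of all probe sets called. DUSP5, a nuclear phosphatase specific to ERK, had a single probe set with 1100 and 1059 units in S1b and 929 and 961 in S1a, against 507 and 560 in parental cells. The groups did not overlap, and the log2 change was 1.01 ± 0.0995 in S1b (limma adjusted p = 3.91e-05) and 0.82 ± 0.0995 in S1a (adjusted p = 0.000191).

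DUSP2, the remaining nuclear member, known chiefly from lymphoid cells, was dim on all arrays. It had 4.49 and 5.58 units in S1b and 12.7 and 7.48 in S1a, against 3.82 and 30.3 in parental cells, below the filter of 44 units throughout. The parental arrays spanned the values of both isolates, so no fold is given.

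**Figure D1:**
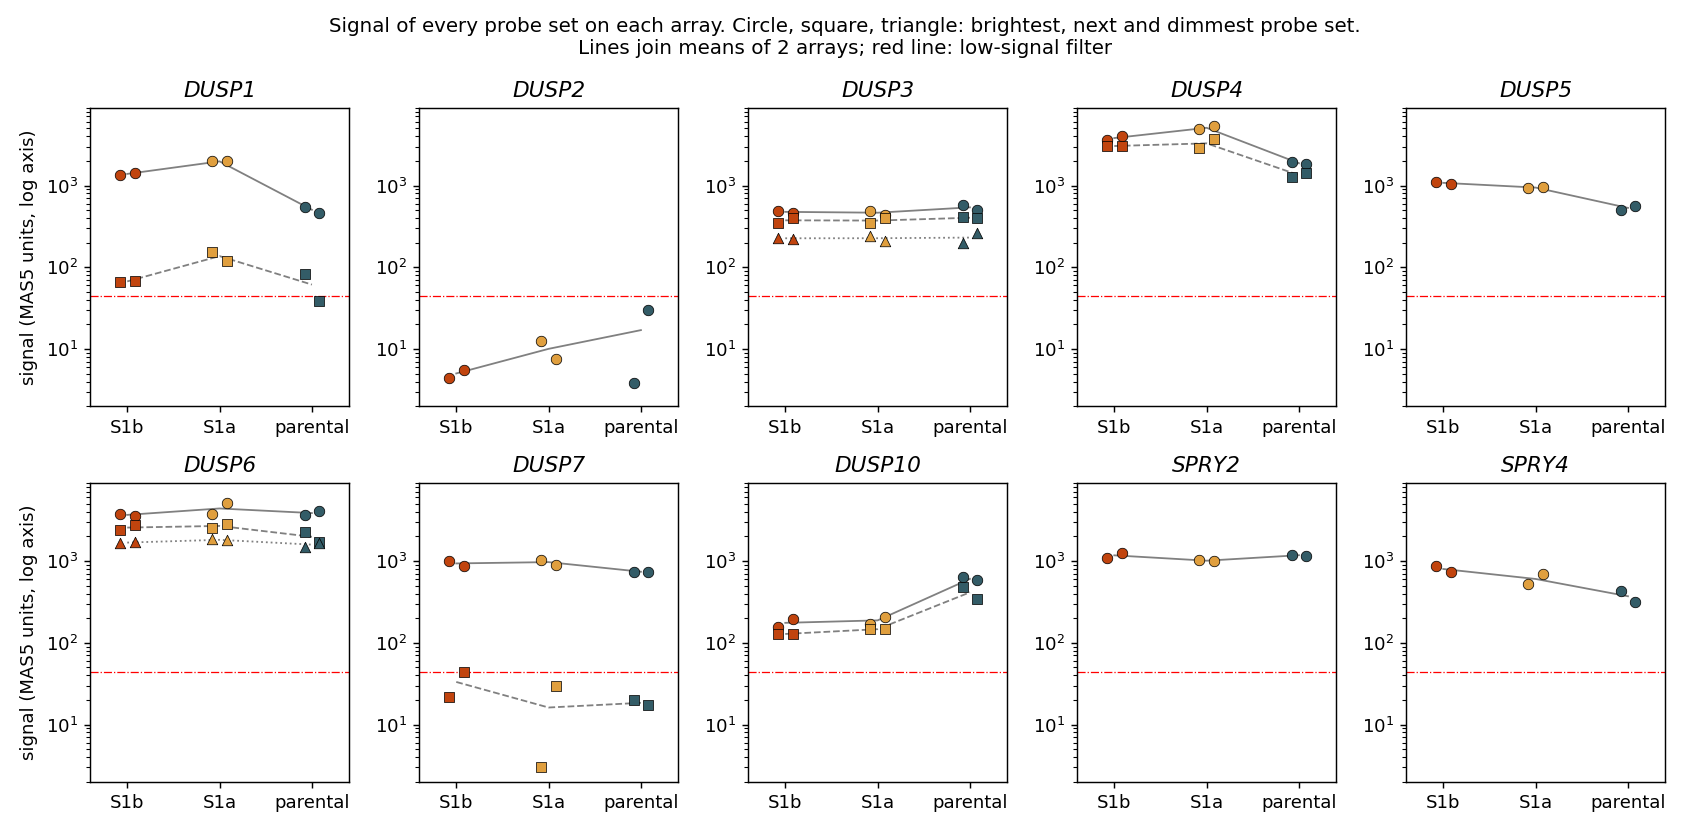
Signal of each probe set (MAS5 units, log axis) on the 2 arrays of S1b, S1a and parental cells, 1 panel per gene; circles, squares and triangles are the brightest, next and dimmest probe set, lines join group means and the red line is the filter of 44 units. DUSP1, DUSP4, DUSP5 and SPRY4 lie higher in the isolates, DUSP10 lies lower with both probe sets, and DUSP2 lies below the filter on every array.

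The phosphatases of the cytoplasm that are selective for ERK are DUSP6 and DUSP7. By the brightest probe set, DUSP6 was not called, and DUSP7 rose in both isolates by less than DUSP1, DUSP4 and DUSP5. DUSP6, whose transcript follows ERK activity closely in many cells, had 3745 and 3587 units in S1b and 3723 and 5062 in S1a, against 3645 and 4072 in parental cells. The arrays of all 3 populations overlapped, and 1 S1a array stood above the others. The log2 change was -0.07 in S1b (95% interval -0.36 to 0.22, limma adjusted p = 0.691) and 0.17 in S1a (-0.12 to 0.46, adjusted p = 0.325). The probe sets of DUSP6 disagreed on the call. The middle one, with 2363 and 2765 units in S1b and 2517 and 2855 in S1a against 2240 and 1717 in parental cells, passed with changes of 0.38 ± 0.133 (limma adjusted p = 0.0446 over probe sets) and 0.45 ± 0.133 (adjusted p = 0.024). The dimmest one did not pass, with 0.09 ± 0.0934 and 0.20 ± 0.0934. With the mean of the 3 probe sets, with median centring or without S1a replicate 1, DUSP6 was called in S1a (limma adjusted p = 0.0368, 0.0476 and 0.0432, changes of 0.27, 0.36 and 0.39).

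DUSP7 had 1008 and 861 units in S1b and 1038 and 901 in S1a, against 741 and 738 in parental cells. All 4 isolate arrays lay above both parental arrays, while the S1b and S1a arrays overlapped. It rose by 0.33 ± 0.114 on the log2 scale in S1b (limma adjusted p = 0.0397) and by 0.39 ± 0.114 in S1a (adjusted p = 0.0228). The S1b call ended in 6 of 18 alternatives, namely no filter (adjusted p = 0.0553), array weights (0.0646), no variance trend (0.102) and the fits without S1b replicate 1 (0.247), parental replicate 1 (0.071) or parental replicate 2 (0.077), and the S1a call without a trend (0.0754) or without S1a replicate 1 (0.186). Its other probe set lay between 3.03 and 44.4 units, failed the filter and was not tested.

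DUSP10 was the member with the largest fall. It encodes a phosphatase selective for p38 and JNK, unlike DUSP5, DUSP6 and DUSP7, which are selective for ERK. DUSP1 and DUSP4, which were higher, also act on JNK, and DUSP1 on p38. Its brighter probe set had 157 and 193 units in S1b and 171 and 205 in S1a, against 630 and 578 in parental cells. Its dimmer probe set had 127 and 129 units in S1b and 146 and 147 in S1a, against 481 and 347 in parental cells. In both probe sets every isolate array lay below both parental arrays. The log2 change of the gene was -1.77 ± 0.169 in S1b (limma adjusted p = 3.39e-05) and -1.67 ± 0.169 in S1a (adjusted p = 6.56e-05), which leaves 0.29 and 0.311 of the parental mean signal. The dimmer probe set gave -1.64 ± 0.197 and -1.45 ± 0.197.

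DUSP3, a small phosphatase that lacks the kinase-binding domain of the others and acts on ERK and JNK, had 488 and 466 units in S1b and 495 and 436 in S1a, against 577 and 506 in parental cells. Its isolate arrays lay below the parental ones, by less than the test resolves: the log2 change was -0.18 in S1b (95% interval -0.46 to 0.10, limma adjusted p = 0.281) and -0.22 in S1a (-0.49 to 0.06, adjusted p = 0.2). Its other probe sets gave changes between -0.12 and -0.01, with adjusted p from 0.547 to 0.959.

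The Sprouty genes parted from each other. SPRY4 had 859 and 738 units in S1b and 517 and 689 in S1a, against 430 and 312 in parental cells, with no overlap between the groups. Its log2 change was 1.11 ± 0.18 in S1b (limma adjusted p = 0.00083) and 0.70 ± 0.18 in S1a (adjusted p = 0.012). The S1a call ended without S1a replicate 2 (0.49, adjusted p = 0.101), without parental replicate 2 (0.47, adjusted p = 0.0528) and without a variance trend (adjusted p = 0.0649); the S1b call held in all 17 alternatives that gave it a value. SPRY2 had 1088 and 1259 units in S1b and 1015 and 1002 in S1a, against 1195 and 1160 in parental cells. The S1b arrays spanned the parental ones and the S1a arrays lay below them. Its log2 change was -0.01 in S1b (95% interval -0.23 to 0.21, limma adjusted p = 0.952) and -0.22 in S1a (adjusted p = 0.1).

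In all, 6 of the 9 tested members were called in S1b, 5 higher (DUSP1, DUSP4, DUSP5, DUSP7 and SPRY4) and 1 lower (DUSP10). The same 6 were called with the same signs in S1a, but both comparisons use the same parental arrays. Over all 7791 genes, 41.6% were called in S1b (20.7% higher and 20.9% lower) and 39.2% in S1a (19.4% higher and 19.9% lower). The median log2 change of the 9 members was 0.33 in S1b and 0.39 in S1a, against -0.02 and -0.03 over all genes tested. Changes past the threshold and at least 2-fold were found for 5 members in S1b (DUSP1, DUSP4, DUSP5, DUSP10 and SPRY4), with 9.84% of all genes, and for 3 in S1a (DUSP1, DUSP4 and DUSP10), with 8.5% of all genes. The 2 arrays of the isolate were both above or both below the parental pair for 7 of the 9 members in S1b and 8 in S1a, as they were for 69.7% and 70.5% of all genes. The members were chosen with these values known, so nothing is read from the counts.

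The calls of DUSP1, DUSP4, DUSP5 and DUSP10 against parental cells held in all alternatives that included the gene, those without 1 array among them. Their changes ran from 0.83 to 1.65 in S1b and from 1.57 to 2.15 in S1a for DUSP1, from 0.95 to 1.21 and from 1.36 to 1.63 for DUSP4, from 0.94 to 1.21 and from 0.75 to 1.01 for DUSP5, and from -1.92 to -1.58 and from -1.80 to -1.48 for DUSP10.

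**Figure D2:**
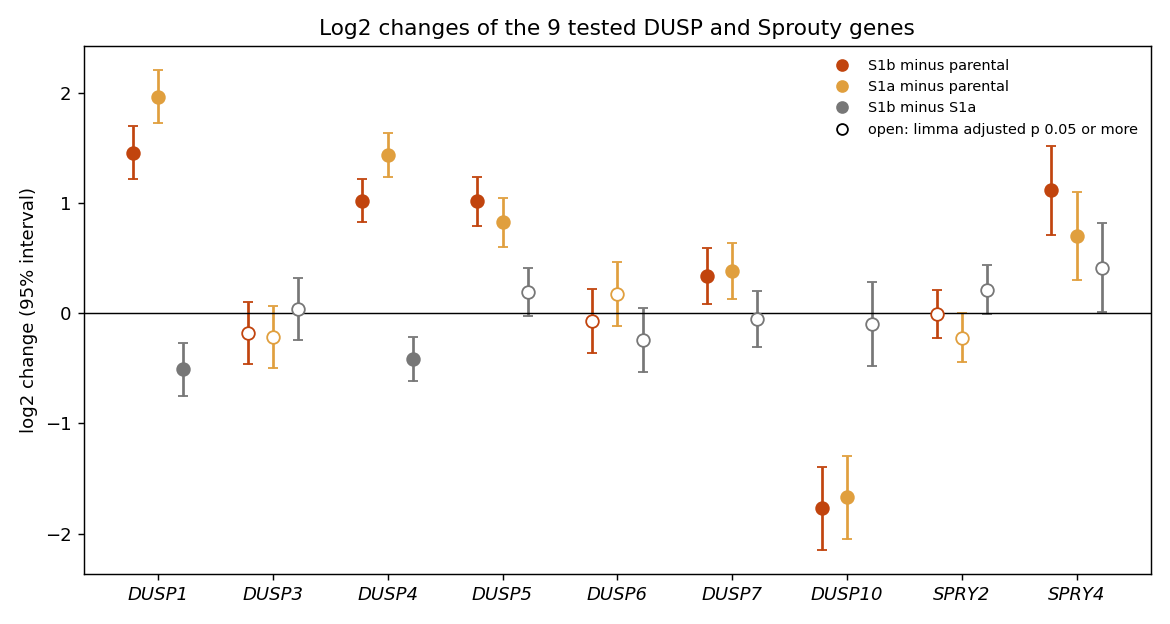
Log2 changes of the 9 tested genes with 95% intervals from the fit across 7791 genes, for S1b minus parental, S1a minus parental and S1b minus S1a; filled points have a limma adjusted p under 0.05. DUSP1 reaches 1.96 in S1a, DUSP10 lies at -1.77 and -1.67, and the intervals of DUSP3 and DUSP6 against parental include 0.

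Between the isolates, 2 of the 9 members were called and both were lower in S1b, DUSP1 with a log2 change of -0.51 ± 0.108 (limma adjusted p = 0.0485) and DUSP4 with -0.42 ± 0.0889 (adjusted p = 0.049). Over all genes, 1.89% were called in this comparison, 1.42% lower and 0.462% higher. The calls stand at the edge of the threshold: DUSP1 kept its call in 6 of 17 alternatives and DUSP4 in 6 of 18. Each call ended without either S1b array and without either S1a array, with adjusted p from 0.136 to 0.355. For SPRY4 the difference was 0.41 (95% interval 0.01 to 0.81, limma adjusted p = 0.318), for SPRY2 0.21 (-0.01 to 0.43, adjusted p = 0.354) and for DUSP5 0.19 (-0.03 to 0.41, adjusted p = 0.41). In these 3 genes both S1b arrays lay above both S1a arrays, as arrays of the isolates did not overlap in 49.6% of all genes. DUSP10 differed by -0.10 (95% interval -0.48 to 0.28), DUSP7 by -0.05 (-0.31 to 0.20), DUSP3 by 0.04 (-0.24 to 0.32) and DUSP6 by -0.24 (-0.54 to 0.05).

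What could be resolved rested on a spread pooled over all populations and drawn towards a variance trend, not on any population alone. The gap between the 2 arrays of a population is given as a description. For the brightest probe set of each tested member it was widest for SPRY4, at 0.46 on the log2 scale in parental cells and 0.41 in S1a, and for DUSP6, at 0.44 in S1a. Over all genes the median gap was 0.145 in S1b, 0.121 in S1a and 0.18 in parental cells. For DUSP1 the gap was 0.11 in S1b, 0.00767 in S1a and 0.27 in parental cells.

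**Figure D3:**
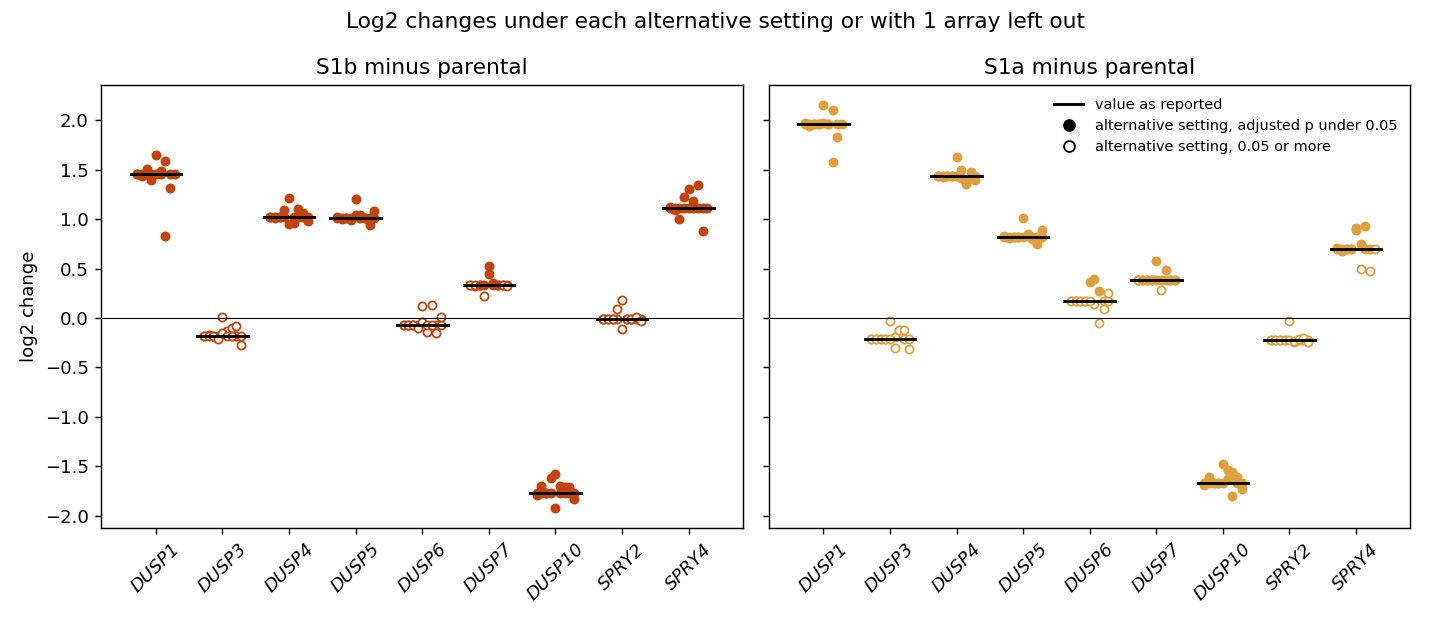
Log2 changes of the 9 tested genes under each alternative setting or with 1 array left out (points; filled where the limma adjusted p is under 0.05) beside the value as reported (black line), for S1b minus parental and S1a minus parental. The points of DUSP1, DUSP4, DUSP5 and DUSP10 are all filled, and DUSP3 and SPRY2 have none filled. Those of DUSP7 are mixed in both isolates and those of SPRY4 in S1a only. DUSP6 has 3 of 18 filled in S1a and 0 in S1b.

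Other genes of the same families were taken from lists. Of 9 further MAP kinase phosphatase, Sprouty and SPRED genes, 4 had a probe set and 2 passed the filter, and both rose in both isolates. Over all genes, 20.7% rose in S1b and 19.4% in S1a, and the list was chosen with earlier results known. SPRY1, a further Sprouty gene, had 306 and 345 units in S1b and 345 and 316 in S1a, against 175 and 134 in parental cells, with log2 changes of 1.07 ± 0.175 and 1.09 ± 0.175 (limma adjusted p = 0.000937 and 0.00101). SPRED2, a Sprouty-related inhibitor of RAS to RAF signalling, had 972 and 972 units in S1b and 798 and 940 in S1a, against 501 and 494 in parental cells. It rose by 0.96 ± 0.109 and 0.80 ± 0.109 on the log2 scale (limma adjusted p = 9.92e-05 and 0.000388). DUSP8 and DUSP9, a stress kinase and an ERK phosphatase, were below the filter with group means of at most 27.5 units.

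Of the atypical DUSP genes, which are small phosphatases without the kinase-binding domain, 4 were tested. In each isolate 2 rose and 1 fell, with medians of 0.25 in S1b and 0.33 in S1a. Of all genes tested, 20.7% rose and 20.9% fell in S1b, and 19.4% and 19.9% in S1a, with medians of -0.02 and -0.03. DUSP22, a phosphatase linked to JNK signalling, fell to 297 and 309 units in S1b and 304 and 364 in S1a, against 561 and 646 in parental cells (log2 changes of -0.98 ± 0.141 and -0.85 ± 0.141). DUSP14 rose by 0.54 ± 0.108 and 0.63 ± 0.108, and DUSP11, an RNA phosphatase, by 0.45 ± 0.11 and 0.57 ± 0.11. The DUSP11 call in S1b ended without S1b replicate 2 (limma adjusted p = 0.0635). DUSP12 was not called, at 0.05 and 0.09.

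Of 14 other genes known as outputs of ERK, all tested, 7 rose and 1 fell in S1b, and 7 rose and 2 fell in S1a, with medians of 0.39 and 0.36. Over all genes, 20.7% rose and 20.9% fell in S1b and 19.4% rose and 19.9% fell in S1a, with medians of -0.02 and -0.03. EPHA2, an ephrin receptor, rose by 0.79 ± 0.109 in S1b and 1.03 ± 0.109 in S1a. FOSL1, an AP-1 subunit, rose by 0.58 ± 0.0793 and 0.33 ± 0.0793, and the S1a call ended without either S1a array (limma adjusted p = 0.0503 and 0.0902). PLAUR, the urokinase receptor, rose by 1.69 ± 0.0809 and 1.46 ± 0.0809, but with shared-probe suffixes left out its remaining probe set gave 0.25 and 0.04 and no call (adjusted p = 0.2 and 0.862). IER3, an early response gene, fell to 7074 and 6435 units in S1b and 6754 and 7243 in S1a, against 10968 and 14843 in parental cells (-0.92 ± 0.131 and -0.87 ± 0.131). With shared-probe suffixes left out, 3 of the 8 genes of this list that could still be tested rose and 0 fell in each isolate. In that setting 973 of 4781 genes rose and 922 fell in S1b, and 891 rose and 840 fell in S1a.

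Of 14 tested genes of the RAS to ERK cascade, 3 rose and 4 fell in S1b, and 3 rose and 3 fell in S1a, with medians of -0.11 and -0.07. In all, 7 of the 14 were called in S1b and 6 in S1a, beside 41.6% and 39.2% of all genes. PTPN11, the phosphatase that links receptors to RAS, rose by 0.58 ± 0.0796 and 0.54 ± 0.0796. PEBP1, which binds and restrains RAF, rose by 0.26 ± 0.0886 in S1b and 0.61 ± 0.0886 in S1a; its S1b call (limma adjusted p = 0.0389) ended in 9 alternatives. RPS6KA3, a kinase downstream of ERK, fell by 0.78 ± 0.125 and 0.69 ± 0.125, and the adaptor SHC1 by 0.29 ± 0.0933 and 0.55 ± 0.0933, its S1b call ending in 5 alternatives. MAP2K1 and MAP2K2, which phosphorylate ERK, were not called, with changes between -0.13 and 0.02.

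Of 12 tested genes of the JNK and p38 cascades, 3 fell and 0 rose in each isolate, with medians of -0.13 and -0.06. The counts without centring stand beside the 20.9% of all genes that fell and 20.7% that rose in S1b, and 19.9% and 19.4% in S1a. With median centring 2 rose in each, where 2447 of all 7791 genes rose in S1b and 2334 in S1a. MAPK13, a p38 kinase, had 308 and 265 units in S1b and 258 and 249 in S1a, against 533 and 552 in parental cells, and fell by 0.92 ± 0.138 and 1.09 ± 0.138 on the log2 scale. MAPKAPK2, a kinase activated by p38, fell by 0.68 ± 0.129 and 0.59 ± 0.129. MAPK9, a JNK gene, fell by 0.40 ± 0.0869 in S1b (limma adjusted p = 0.00498, 0.145 with median centring) and was not called in S1a (-0.17, adjusted p = 0.144, 0.02 with median centring). MAPK10, a further JNK gene, had 61.2 and 23.7 units in S1b and 16.3 and 15.6 in S1a, against 107 and 65.6 in parental cells. Only its parental mean was above 44 units, so it passed the filter through the population where it is high; it is 1 of the 3 genes counted as lower in S1a, and nothing is read from its call.

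**Figure D4:**
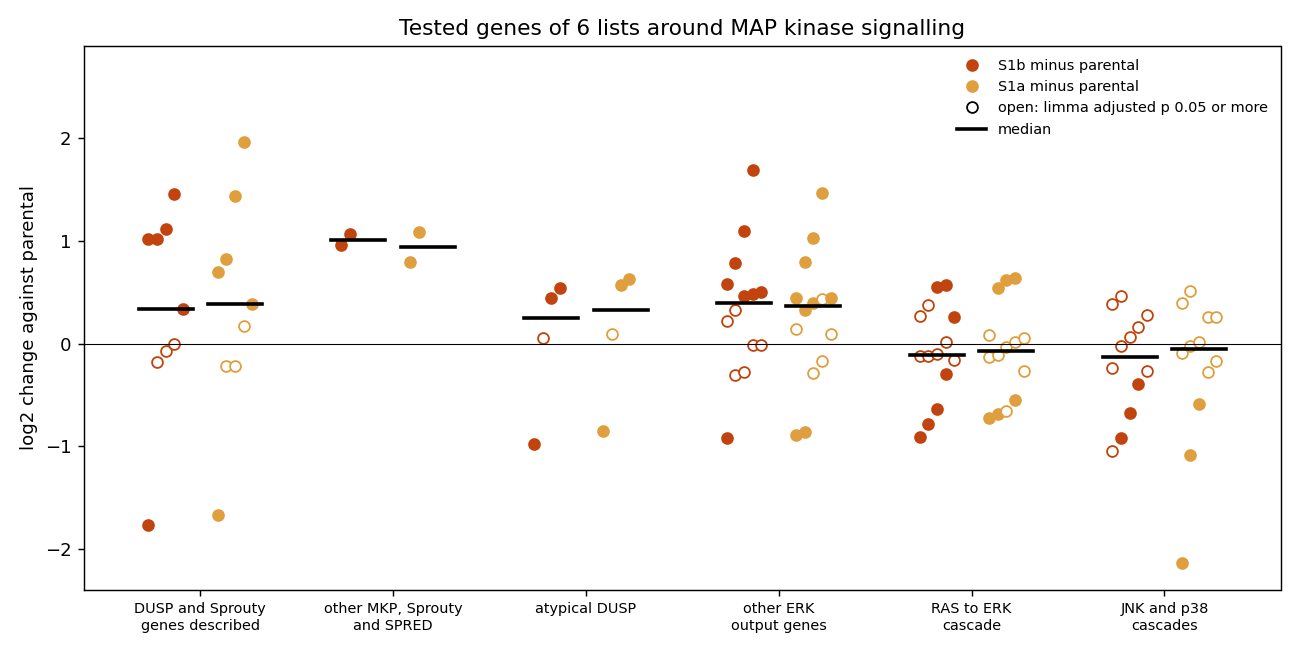
Log2 changes of the tested genes of 6 lists, for S1b minus parental and S1a minus parental; each point is a gene, filled where the limma adjusted p is under 0.05, and black bars are medians. The described DUSP and Sprouty genes span -1.77 to 1.45 in S1b and -1.67 to 1.96 in S1a, and the cascade genes have medians between -0.13 and -0.06; the lowest point, at -2.14 in S1a, is MAPK10, above the filter on average in parental cells only.

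DUSP1 and DUSP10 had the largest pairs of changes among the members, and for each the 5 non-member genes with the closest pair of log2 changes were found among genes within 4-fold of its mean signal. Closeness was the Euclidean distance between the changes in S1b and S1a, over 3 populations. For DUSP1, out of 4188 candidates, these were CXCL8 (distance 0.0447), PIK3CD (0.173), FST (0.308), EDN1 (0.34) and PFN2 (0.375). CXCL8, which encodes the chemokine interleukin 8, changed by 1.46 in S1b and 1.92 in S1a, beside 1.45 and 1.96 for DUSP1. For DUSP10, out of 5099 candidates, they were TSPYL5 (0.0631), GTF2I (0.0666), HFE (0.0832), EFHD1 (0.129) and AKR1C3 (0.138). TSPYL5 changed by -1.81 in S1b and -1.62 in S1a, beside -1.77 and -1.67 for DUSP10. GTF2I has near-identical copies in the genome, so the source of its signal is uncertain.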

How the data were processed

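S1b, S1a and parental cells gave 2 Affymetrix arrays each, hybridised with biotin-labelled RNA. The deposited values are intensity signals on a linear scale, made by the authors with MAS5, which the submitters' processing notes name; its version is not given in the sources used here. No scanner file or detection call was used; arrays have no read depth, and their number limits the precision.

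Of 22277 probe sets, 62 controls were left out. A platform annotation gave 1 symbol for 19064 of the other 22215, several for 1043 and none for 2108; only the first kind was named, with symbols updated by gene identifier (RefSeq, GRCh38.p14). Each gene was represented by the probe set brightest on average. Tests used log2(signal + 3.942), with a pseudocount at the 10th percentile of signals, which understates fold changes of dim genes. Probe sets below the 40th percentile of mean signal (44 units) were left out, which left 7791 genes. The fit used limma 3.58.1 (R 4.3.3) on the 6 arrays together, with 1 mean per population and a variance trend (7 prior and 3 residual degrees of freedom), and p-values were Benjamini-Hochberg adjusted over all genes within each comparison, with a threshold of 0.05. Values of a second probe set come from the same fit over 11860 probe sets. The fit was also run on simulated data, with changes planted in a small share of genes and in S1a only. That setting differs from these data, so nothing is read from it.

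The members, lists and tests were chosen with earlier results of these data known. The rule for named genes took all members with every probe set, all tested genes of the list of further phosphatase, Sprouty and SPRED genes, up to 4 genes with the smallest p-values of each other list, and the 5 closest patterns to 2 members. DUSP8, DUSP9, MAP2K1 and MAP2K2 fall outside it and were named after their values were seen. Alternatives changed the pseudocount, filter, normalization, probe-set rule, variance model, array weights and replicate block, and left out each array.

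The replicate numbers do not pair the arrays: differences between replicate 2 and replicate 1 correlated across genes with r = -0.0583 between S1b and S1a, -0.0674 between S1b and parental and -0.0046 between S1a and parental.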

Additional observations from a re-analysis of the deposited data

Results flagged for a closer look

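The responses of the isolates against the same parental arrays differed by the fit for 2 members, tested as S1b minus S1a. DUSP1 was lower in S1b than in S1a by a log2 change of -0.51 ± 0.108 (limma adjusted p = 0.0485; 1336 and 1442 units in S1b, against 1972 and 1982 in S1a). DUSP4 was lower in S1b by -0.42 ± 0.0889 (adjusted p = 0.049; 3625 and 4001 units in S1b, against 4876 and 5300 in S1a), while its second probe set gave -0.10 ± 0.119 (adjusted p = 0.779 over probe sets). Both S1b arrays were lower than both S1a arrays in the brighter probe sets. Over the alternatives, the adjusted p ran from 0.00794 to 0.285 for DUSP1 and from 0.0161 to 0.355 for DUSP4.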

How the results depend on the processing

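Against parental cells, the number of members called was 4 to 6 in S1b and 4 to 7 in S1a under the alternatives, beside 6 in each, and 5 to 6 in each with 1 array left out. With shared-probe suffixes left out, DUSP1 and SPRY4 had no probe set left, and the genes called over the whole table were 1895 in S1b and 1731 in S1a, with fewer genes tested, against 3244 and 3057. With 1 array left out they ran from 2235 to 3142 in S1b and from 1902 to 2914 in S1a. Without S1a replicate 1 or 2, S1a had 1975 and 1902. Median centring moved the median change of all genes by 0.192 in S1b and 0.189 in S1a, and the share of calls that were higher to 71.2% in S1b and 72.9% in S1a, against 49.8% and 49.4%; no called member changed sign.

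S1b minus S1a depended on most settings. Over all genes 147 were called, against 63 with no filter, 79 with the mean of probe sets, 58 with shared-probe suffixes left out, 4 with no trend, 320 with array weights and 64 with the replicate block; with 1 array left out, 22 to 348 were called. Of the members, 2 were called, against 1 with median centring (DUSP1) or quantile normalization (DUSP4), and 0 with pseudocount 1, no filter, the mean of probe sets, each probe set on its own, shared-probe suffixes left out, no trend or the replicate block; the range with 1 array left out was 0 to 2. The replicate numbers do not pair the arrays, and the replicate block ended no call of a member against parental cells (among the other named genes it ended that of PEBP1 in S1b, adjusted p = 0.0618). Where it is not given beside a setting, the cause was not tested.

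The sign of changes that were not called turned in some settings. In S1b minus parental it turned with median centring for DUSP3 (0.013), DUSP6 (0.12) and SPRY2 (0.18), and for DUSP6 with the mean of probe sets (0.13). With 1 array left out, DUSP6 ran from -0.15 to 0.0081, SPRY2 from -0.11 to 0.10 and DUSP12 from -0.0041 to 0.11 in that comparison. In S1a minus parental it turned for MAPK9 with median centring (0.017), and DUSP6 ran from -0.049 to 0.39 with 1 array left out. In S1b minus S1a the ranges with 1 array left out were -0.25 to 0.047 for DUSP10, -0.17 to 0.059 for DUSP7 and -0.055 to 0.13 for DUSP3.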
